A study of Drosophila melanogaster with 2 samples.

Results

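Neurons pass signals at synapses. Binding of the transcription factor HLH3B was examined at 44 Drosophila melanogaster genes for synapses and neurotransmitters, out of 18164 annotated genes. The 44 genes were a fixed list of symbols, and all 44 were matched in the annotation. They comprise 16 genes of the synaptic vesicle, the active zone and general neuronal function, 10 of GABA signalling, 12 of acetylcholine signalling and 6 of glutamate signalling. HLH3B binding was mapped by chromatin immunoprecipitation sequencing (ChIP-seq) in whole embryos aged 8 to 24 h of strain HLH3B-GFP. These carry a transgene for HLH3B fused to eGFP, and an antibody against GFP was used. All samples belonged to 1 group, with 2 biological replicates, and nothing else was compared. The sources used here do not say what drives the transgene or how many embryos were pooled. Binding in few cells and weak binding in many cannot be told apart in whole embryos, and the peak lists hold no expression by which a tissue could be checked.

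HLH3B is the fly relative of vertebrate Tal1, a helix-loop-helix transcription factor known for its role in blood cells. Proteins of this class bind DNA as dimers at E-boxes, short motifs that start with CA and end with TG. At a synapse, vesicles loaded with transmitter fuse with the membrane at the active zone, and receptors on the receiving cell answer. In the fly, acetylcholine is the main fast excitatory transmitter of the central nervous system, GABA is inhibitory, and glutamate drives the neuromuscular junction. Many genes of this kind are long, and other genes lie inside their introns.

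A site is the summit, or highest point, of a peak in the authors' lists. It was given to a gene when it lay in the gene body or up to 2000 bp upstream. The main list was the conservative set of 3846 peaks, all with an irreproducible discovery rate (IDR) of 0.00999 or lower. The IDR is low for peaks whose rank repeats between the data sets compared. The others were a second series-level set of 5814 peaks and the lists of replicate 1, with 3992 peaks, and replicate 2, with 3546. The signal value of a peak is the authors' own and its scale is not given, so it is used within a list only. Read depth is unknown.

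The sites that carry the account below are shown as the 121 bases centred on each summit (plus strand of the Release 6 genome, dm6, from RefSeq), to show the bases around the highest point of binding. The first 3 belong to the conservative set and the other 4 to the second series-level set. Capitals mark every E-box (CANNTG) and every GATAA, the core of the motif of GATA factors, on either strand.
ChAT, chr3R:18719901-18720021: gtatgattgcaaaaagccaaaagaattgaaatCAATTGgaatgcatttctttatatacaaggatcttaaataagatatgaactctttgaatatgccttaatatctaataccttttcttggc
Syn, chr3R:10213576-10213696: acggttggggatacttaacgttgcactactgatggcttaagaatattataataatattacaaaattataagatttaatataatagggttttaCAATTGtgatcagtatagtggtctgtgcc
nSyb, chr3L:1639497-1639617: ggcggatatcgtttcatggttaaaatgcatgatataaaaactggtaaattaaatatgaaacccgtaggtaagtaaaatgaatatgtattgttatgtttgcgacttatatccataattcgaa
Gabat, chr3L:20002567-20002687: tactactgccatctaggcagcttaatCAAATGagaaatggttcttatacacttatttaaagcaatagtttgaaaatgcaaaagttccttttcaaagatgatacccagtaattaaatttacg
nAChRalpha5, chr2L:14047252-14047372: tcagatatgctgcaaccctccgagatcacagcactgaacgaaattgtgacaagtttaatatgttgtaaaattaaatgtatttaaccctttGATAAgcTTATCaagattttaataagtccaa
VGlut, chr2L:2398590-2398710: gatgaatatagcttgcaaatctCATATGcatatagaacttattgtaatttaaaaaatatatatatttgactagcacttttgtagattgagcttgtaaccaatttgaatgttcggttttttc
VGlut, chr2L:2402366-2402486: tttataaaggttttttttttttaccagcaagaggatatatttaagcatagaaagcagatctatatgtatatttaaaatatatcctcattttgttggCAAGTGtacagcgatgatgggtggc

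The windows are rich in A and T, and none holds CAGATG, the textbook motif of Tal1-type proteins. Within 50 bp of the summit, the A+T share ran from 48.5% to 77.2% over the 11 different sites found in the genes in any of the 4 lists. It was above 69.3%, the median of all conservative sites, in 9 of the 11. CAGATG was in 0 of the 11, against 2.81% of all 3846 conservative sites in windows of the same length. With 11 sites, a count of 0 cannot be told apart from that share. An E-box of any kind was in 5 of the 11, against 33.2% of conservative sites. ChAT and Syn both held CAATTG within their windows. The GATAA motif was in 2 of the 11, against 22.6%. In nAChRalpha5 it occurred on both strands, with 2 bases between the matches. Only 4 of the 11 sites took their position from the conservative set. Over the second series-level set the median A+T share was 67.3%. CAGATG was in 2.92% of its sites, an E-box in 35.0% and GATAA in 22.5%. A match in letters is a description and does not show a bound motif.

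Few of the 44 genes had an HLH3B site, and none had a site within 1000 bp of its own start. In the conservative set 4 genes had a site, or 9.09%, against 20.3% of all genes and 23.1% of protein-coding genes. They were ChAT and mAChR-A of the acetylcholine genes, and Syn and nSyb of the vesicle genes. The same 4 genes had a site in all 4 lists. In the second series-level set 8 genes had a site, or 18.2%, against 27.3% of all genes. Replicate 1 gave 7 genes against a background of 20.7%, and replicate 2 gave 6 against 19.7%, a mean of 6.5 ± 0.707 genes (SD, n = 2). In all, 10 of the 44 had a site in at least 1 list. The list is a fixed choice of genes, so these counts are set beside the background without a test.

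The synaptic genes are long, with a median length of 15551 bp against 1656 bp for all genes, and long genes hold more sites. Each length class therefore has its own background. Of the 15 genes from 5 to 20 kb, 2 had a conservative site, or 13.3%, against 35.2% of all genes of that length. Of the 13 genes from 20 to 50 kb, 2 had a site, or 15.4%, against 51.8%. Of the 7 genes of 50 kb and over none had a site, against 59.2%, and of the 9 under 5 kb none had a site, against 15.3%. The share was thus below the background of its own length class in each of the 4 classes. Per length of sequence, the gene windows held 4 conservative summits in 1.372 Mb, or 2.92 per Mb. The windows of all genes held 33.3 per Mb. This density was not split by gene length, so its gap is not matched for length. The gap in the share of genes over all lengths depended on the upstream window. In the gene body alone 3 of the 44 had a site, or 6.82%, close to the 8.61% of all genes. Within the length classes from 5 to 20 kb and from 20 to 50 kb the body alone gave 6.67% against 21.9%, and 15.4% against 45.4%.

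**Figure D1:**
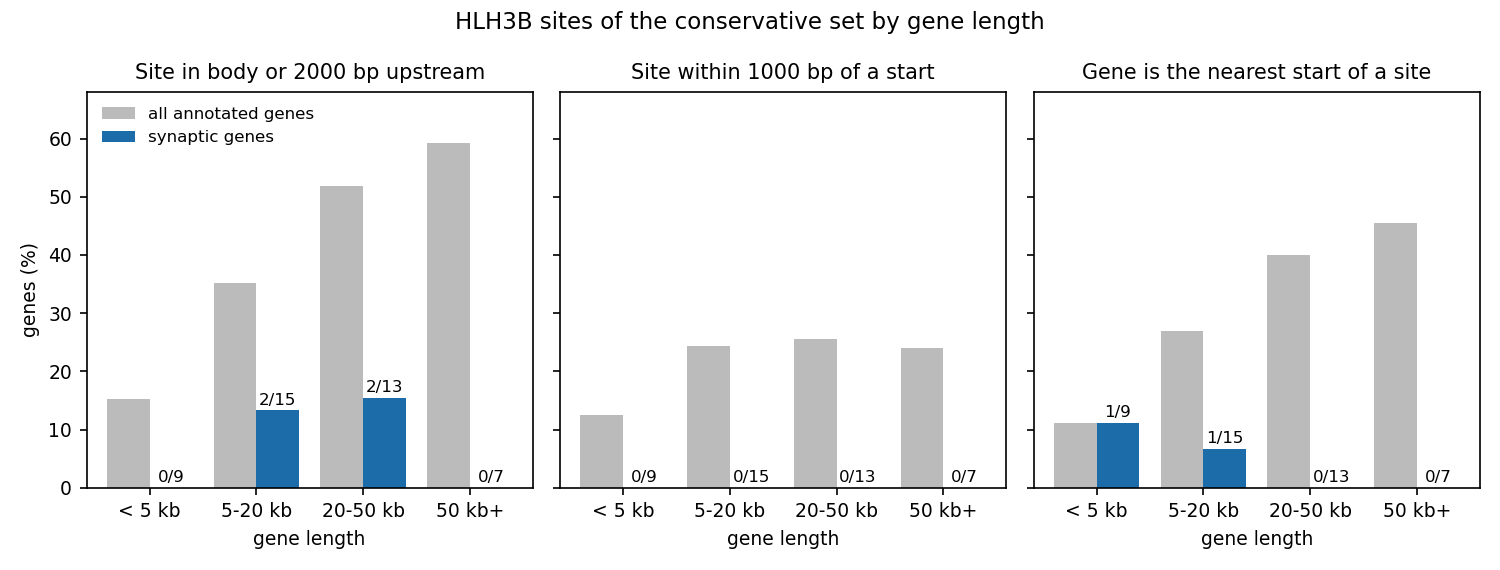
Share of genes (%, from 0) with a conservative HLH3B site by gene length class, for all annotated genes (grey) and the 44 synaptic genes (blue, with counts above the bars). The left panel counts a site in the body or 2000 bp upstream, the middle panel a site within 1000 bp of a start, where the synaptic genes are at 0 in every class, and the right panel genes whose start is the nearest to a site.

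No gene of the 44 had a summit within 1000 bp of an annotated start in the conservative set, where 14.9% of all genes and 16.9% of protein-coding genes did. The count was also 0 in the second series-level set, against 20.8%, and 0 in each replicate. The nearest conservative site lay at a median of 19211 bp from a start of the synaptic genes, against 10174 bp for all genes. The closest was at mAChR-A, at 1075 bp, and the farthest at Snap25, at 1195281 bp. A site lay within 5000 bp of a start in 4 of the 44 genes, or 9.09%, against 33.2% of all genes.

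**Figure D2:**
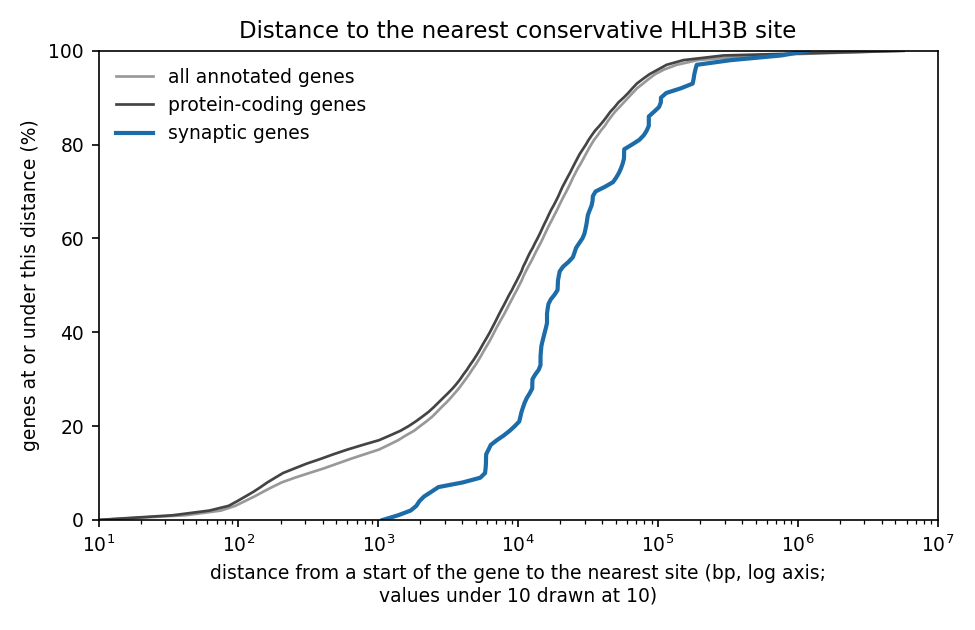
Cumulative share of genes (%) by the distance from a start of the gene to the nearest conservative site (bp, log axis), for all genes, protein-coding genes and the 44 synaptic genes. The curve of the synaptic genes starts at 1075 bp and lies to the right of both others, with medians of 19211 bp against 10174 bp for all genes, except at the top, where it ends at 1195281 bp and the others at 5726142 bp.

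Some sites found in the synaptic genes lay nearer to the start of another gene. Of the 11 different sites, 6 had another gene's start as the nearest and 5 that of the synaptic gene. Introns of the synaptic gene held 6 of the 11. Of the 4 conservative sites, 3 were nearer to another gene. These shares were not counted for the sites of all genes. Over all genes, too, fewer were the nearest start of a conservative site (15.1%) than had one by the rule (20.3%). Judged by nearest start alone, 2 of the 44 genes owned a conservative site, mAChR-A and Syx1A, against 15.1% of all genes. In the second series-level set 4 genes did, against 21.0%. Among the genes under 5 kb the conservative share, 1 of 9 or 11.1%, equalled that of all genes of that length.

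Among the acetylcholine genes, ChAT had the strongest of these sites. ChAT encodes choline acetyltransferase, which makes the transmitter, and it shares its first exon and its start with VAChT, the vesicular acetylcholine transporter. The ChAT site (chr3R:18719883-18720054) had a signal of 277 in the conservative set. It had 135 in replicate 1 and 139 in replicate 2, ranks 757 and 697 of those lists. The summit lay in the long first intron, 14460 bp from the ChAT start and beyond the end of VAChT. It fell 338 bp inside lncRNA:CR46265, a non-coding RNA gene nested in that intron, and the nearest protein-coding start was that of CG34283, 2629 bp away. VAChT itself had no site in the 4 lists.

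The muscarinic receptor gene mAChR-A was the only one of the 44 with a conservative site that had its own start as the nearest. The receptor is coupled to G proteins and answers acetylcholine slowly. The site (chr2R:24389051-24389386) lay in the first intron, 1075 bp downstream of the start, just beyond the 1000 bp limit used for promoters. Its signal was 128 in the conservative set, 52.3 in replicate 1 and 73.6 in replicate 2. It ranked 3272 of 3992 in replicate 1 and 1794 of 3546 in replicate 2, so it stood lower in both than the ChAT site. No sequence of this site is shown.

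A pair of nicotinic receptor subunit genes, whose products form ion channels opened by acetylcholine, had sites outside the conservative set. nAChRalpha5 had a site with a signal of 74.7 in the second series-level set and 44.3 in replicate 2, while the candidate at the same place in replicate 1 had a signal of 30.7 and an IDR of 0.224. That summit lay 270 bp upstream of NimC4, a gene nested in the nAChRalpha5 intron that encodes a receptor for taking up dead cells. nAChRbeta1 had an intronic site 3601 bp from its own start, with a signal of 71.3 in the second set and 48.2 in replicate 1. The candidate there in replicate 2 had a signal of 17.6 and an IDR of 0.470. Each of the sites at these subunit genes thus passed the threshold in 1 replicate. The other subunit genes, nAChRalpha1, nAChRalpha3, nAChRalpha6 and nAChRalpha7, had no site in the 4 lists.

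Among the vesicle and active zone genes, Syn and nSyb carried conservative sites. Syn encodes synapsin, which tethers vesicles in reserve. The Syn site (chr3R:10213564-10213718) had a signal of 196 in the conservative set, 93.3 in replicate 1 and 102 in replicate 2. It lay in an intron 22947 bp from the Syn start, and 629 bp upstream of Timp, a metalloproteinase inhibitor gene nested in that intron on the other strand. nSyb encodes neuronal synaptobrevin, the vesicle protein of the fusion machinery. The nSyb site (chr3L:1639389-1639724) had a signal of 161 in the conservative set, 51.7 in replicate 1 and 110 in replicate 2. It lay 1805 bp upstream of nSyb and 154 bp upstream of Bgb, which encodes the partner subunit of Runt-type factors. In both cases, then, the nearest start was not that of the synaptic gene.

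Syx1A, which encodes the syntaxin of the presynaptic membrane, had no site by the rule but 2 conservative sites just past its 3' end. The stronger (chr3R:24099087-24099260) had a signal of 289 in the conservative set, 127 in replicate 1 and 159 in replicate 2. It lay 2438 bp past the end of the gene, and the weaker, with a signal of 75.8, lay 1735 bp past it. The Syx1A start was the nearest annotated start to both, at 6601 and 5898 bp. The stronger site thus had a higher signal than the site of any of the 4 genes counted in the conservative set. nSyb also had a conservative site past its 3' end, with a signal of 84.5. It lay 8217 bp from the 5' end of nSyb, whose body ends at 7404 bp, and nearer to a start of GC. Sites past the 3' ends of the other genes are not given here.

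**Figure D3:**
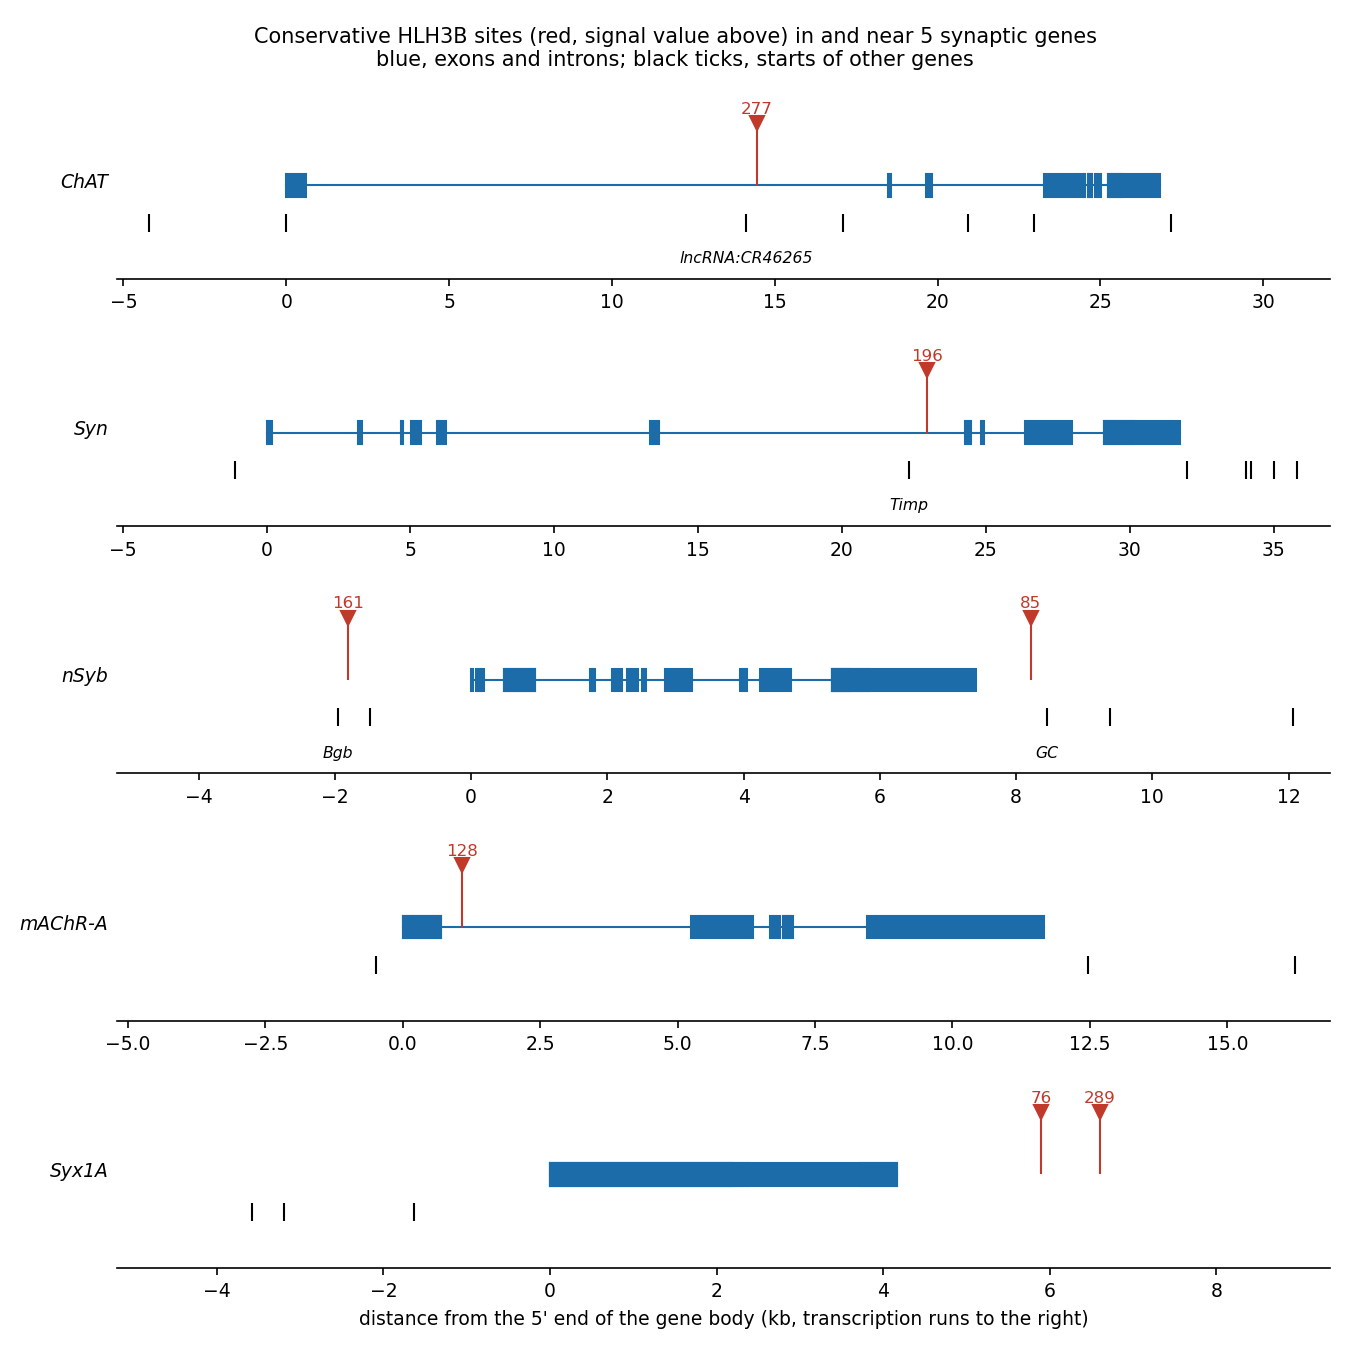
Conservative HLH3B sites (red triangles, signal value above each) in and around ChAT, Syn, nSyb, mAChR-A and Syx1A, drawn to scale in kb from the 5' end of each gene body, with exons as blue boxes and starts of other genes as black ticks. A name marks another gene's start where it is nearer to the site than the start of the gene drawn. These are lncRNA:CR46265 at ChAT, Timp at Syn, and Bgb and GC at nSyb.

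By the rule, Rab3 and unc-13 each had a site in 1 replicate list only, but the Rab3 peak itself was in all 4 lists. Rab3 encodes a small GTPase of the vesicle. Its site in replicate 2 had a signal of 97.7 and lay 1979 bp upstream, just inside the 2000 bp limit and 153 bp upstream of CG7220. In the conservative set the summit of the same peak, with a signal of 170, lay 2031 bp upstream, just outside the limit. Replicate 1 also listed the peak, with a signal of 71.1. unc-13 encodes a priming factor that readies vesicles for fusion. Its site in replicate 1 lay in a coding exon, with a signal of 48.6 and an IDR of 0.00946, and replicate 2 held no candidate in the gene. The remaining vesicle and active zone genes, among them the active zone scaffold genes brp and Rim, the calcium channel gene cac, the sodium channel gene para, the calcium sensor gene Syt1 and its partner cpx, had no site in the 4 lists.

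The GABA genes had no conservative site, and 1 of the 10 had a site in any list. Their median length was 9057 bp, and 20.3% of all genes and 35.2% of those from 5 to 20 kb had a conservative site. A group of 10 genes is too small to set 0 apart from such shares without a test. This was Gabat, which encodes the transaminase that breaks GABA down. Its site had a signal of 297 in the second series-level set, where it ranked 623, and 158 in replicate 1, where it ranked 580. It lay 1941 bp upstream of Gabat and 109 bp upstream of CG7668. In replicate 2 no candidate lay within 100 bp of the summit, and none lay anywhere in Gabat or its upstream window. Gad1, which makes GABA, VGAT, which loads it into vesicles, and the membrane transporter gene Gat had no site in the 4 lists. Neither did the ionotropic receptor genes Rdl, Grd and Lcch3 or the metabotropic receptor genes GABA-B-R1, GABA-B-R2 and GABA-B-R3.

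The glutamate genes had no conservative site either, and VGlut alone of the 6 had a site in any list. Their median length was 4042 bp, and 15.3% of all genes under 5 kb had a conservative site. With 6 genes, a count of 0 cannot be told apart from that share. VGlut encodes the transporter that loads glutamate into vesicles. The second series-level set held 2 sites at VGlut, 1645 bp upstream and 1675 bp downstream of the nearest VGlut starts, with signals of 61.9 and 75.8. VGlut was the nearest gene to both. Neither site was in the list of a replicate. The candidates at the upstream site had signals of 35.4 in replicate 1 and 21.9 in replicate 2, with IDRs of 0.149 and 0.184. At the downstream site replicate 1 held no candidate, and replicate 2 held one with a signal of 37.2 and an IDR of 0.271. A further peak in the list of replicate 2, with a signal of 34.7, had VGlut as its nearest start. It lay 3026 bp upstream, outside the limit. The 5 genes GluRIIA, GluRIIB, GluRIIC, GluRIID and GluRIIE, which encode the receptor subunits on the muscle side of the neuromuscular junction, had no site in the 4 lists.

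Below the threshold, the pooled windows of the synaptic genes held fewer candidate peaks per length than those of all genes. The median count per gene, however, varied with the length class and the replicate. The candidates are the peaks of the ranked list that holds the whole conservative set, most of which miss the IDR threshold. The gene windows held 481 candidates, or 351 per Mb, where the windows of all genes held 756 per Mb. This density was not split by gene length either. In the class from 20 to 50 kb a synaptic gene held a median of 23 of these candidates, against 26 for all genes of that length, and at 50 kb and over 10 against 51. Replicate 1 gave medians of 19 against 27 and 6 against 50 in those classes. Replicate 2 gave 28 against 21 and 54 against 54, so its counts there were at or above the background. From 5 to 20 kb the medians were 5 against 11, with 7 against 12 in replicate 1 and 9 against 7 in replicate 2. Under 5 kb they were 6 against 3, with 4 against 4 in replicate 1 and 3 against 2 in replicate 2. Within 1000 bp of a start 23 of the 44 genes had a candidate, or 52.3%, against 69.6% of all genes. The strongest of these at each gene had a median signal of 31.4, against 40.5 for all genes.

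Of the 34 genes without a site in any list, 24 held a candidate. In 6 of those the candidate with the highest signal had an IDR under 0.05. The IDRs of a gene's weaker candidates, and the same share over all genes, were not counted. The strongest was at Syx1A, 687 bp upstream of the start, with a signal of 96.4 and an IDR of 0.00188. That value is past the threshold of the conservative set, but no thresholded list holds the peak. Among the acetylcholine genes, mAChR-B, a muscarinic receptor gene, had a candidate with a signal of 59.3 and an IDR of 0.0439. The choline transporter gene ChT had 1 with 53.7 and 0.0223, and Ace, whose product breaks down acetylcholine, had 1 with 52.1 and 0.0267. A candidate with a signal of 59.7 and an IDR of 0.0289 counted for both GluRIIA and GluRIIB, which lie side by side. In the GABA group the highest signals were 48.5 at GABA-B-R2 and 47.5 at Lcch3, with IDRs of 0.430 and 0.163. Among the vesicle genes, futsch, which encodes a microtubule-binding protein of the axon, came next after Syx1A, with 61.6 and an IDR of 0.371. In the other genes with a candidate, the one with the highest signal had an IDR of 0.182 (Rim) or higher. Among them was Appl, which encodes the fly amyloid precursor-like protein. The highest signals in these genes ran from 12.2 at GluRIID to 50.5 at cpx, with 36.3 at Appl.

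**Figure D4:**
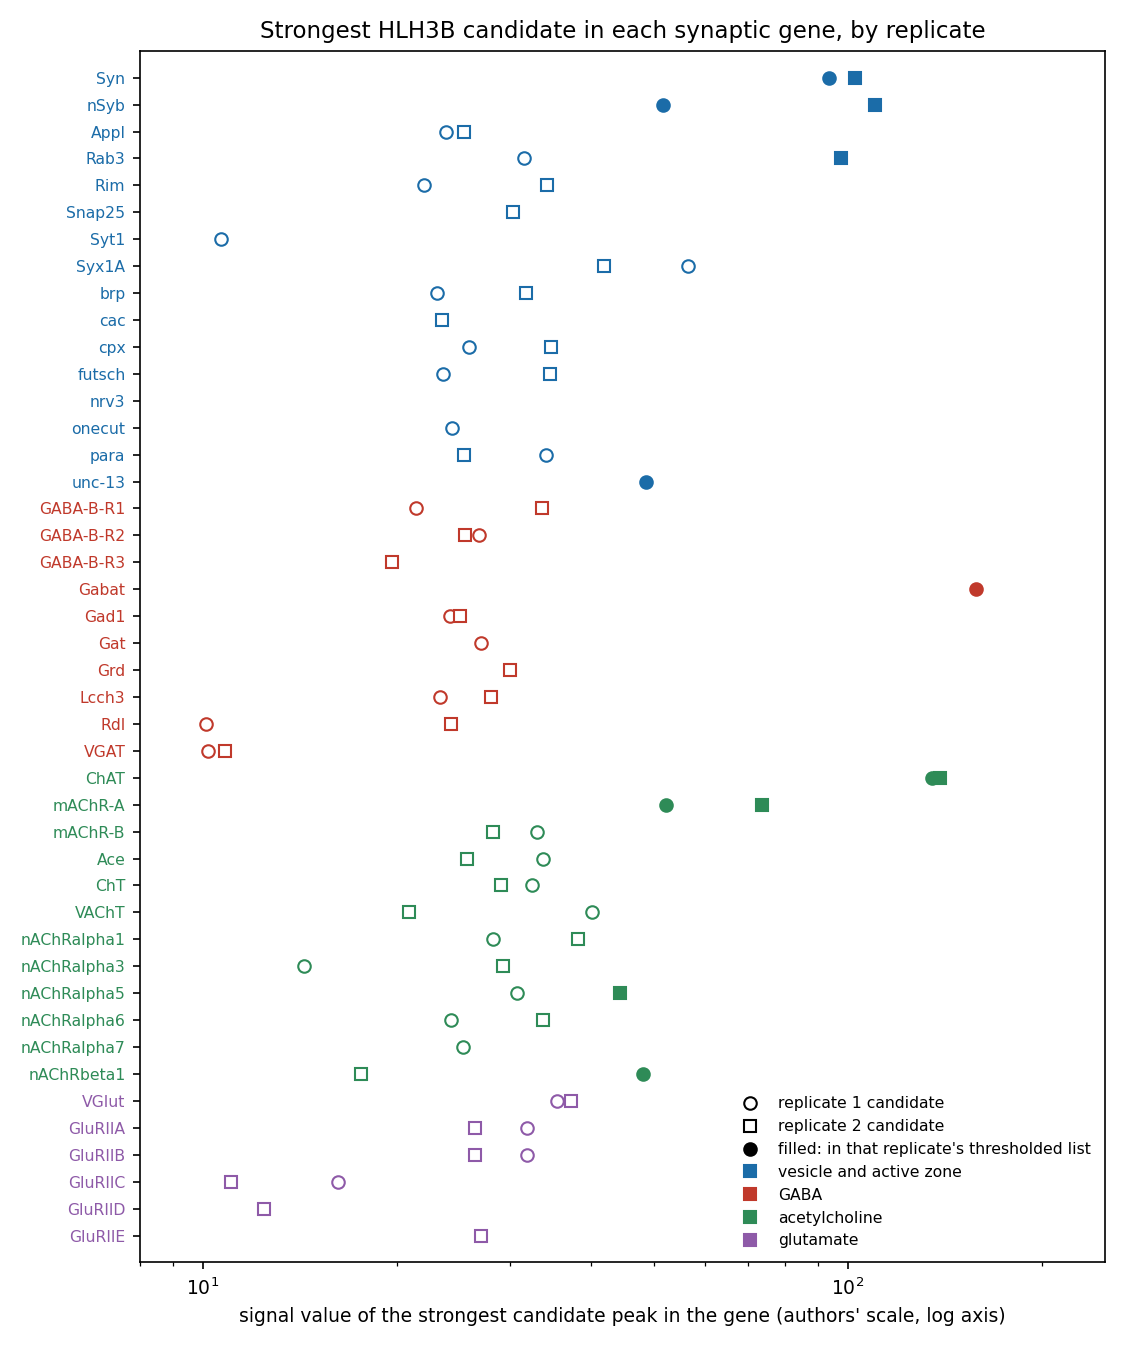
Signal value (authors' scale, log axis) of the strongest candidate peak in each of the 44 genes, with circles for replicate 1 and squares for replicate 2, coloured by group. Filled marks are in that replicate's thresholded list. ChAT reached 135 and 139 and Syn 93.3 and 102 in replicates 1 and 2, whereas Gabat reached 158 in replicate 1 and has no mark for replicate 2.

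The replicates differed in where they held any candidate at all. The candidates behind the conservative set were absent from 12 of the 44 genes, or 27.3%, close to the 26.0% of all genes, but the synaptic genes are long. The genes without one were Snap25, Syt1, cac, nrv3, onecut and unc-13 of the vesicle and active zone group, GABA-B-R3, Gabat, Gat and Grd of the GABA group, and nAChRalpha7 and GluRIIE. Under 5 kb 22.2% had none, below the 29.5% of all genes of that length. In the longer classes the share was above the background, at 33.3% against 12.9% from 5 to 20 kb, 23.1% against 9.17% from 20 to 50 kb, and 28.6% against 11.9% at 50 kb and over. Among genes that held a candidate, 4 of 32 synaptic genes had a conservative site, or 12.5%, against 27.4% of all such genes.

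Several genes held many candidates in 1 replicate and none in the other. Snap25, a gene of 225026 bp for another protein of the fusion machinery, held 115 candidates in replicate 2 and 0 in replicate 1. unc-13 held 42 in replicate 1 and 0 in replicate 2, and nAChRalpha7 held 21 and 0. The neuronal factor gene onecut held 6 candidates and Gat 7 in replicate 1, and each held 0 in replicate 2. Together with unc-13, onecut and Gat are all 3 of the synaptic genes on chromosome 4. These 3 genes are therefore not clearly separate cases. Whether replicate 2 lacked candidates at other genes of that chromosome was not tested. cac held 13 in replicate 2 and 0 in replicate 1, Grd held 17 and 0, and GABA-B-R3 held 14 and 0. In all, 6 genes had candidates in replicate 1 only and 6 in replicate 2 only, which is 13.6% each, against 13.3% and 14.2% of all genes. By length the shares differed more: from 20 to 50 kb 3 of 13 genes, or 23.1%, had candidates in replicate 1 only, against 3.06% of all genes of that length. At 50 kb and over 2 of 7, or 28.6%, had them in replicate 2 only, against 12.2%, and from 5 to 20 kb 2 of 15, or 13.3%, against 5.18%. Also above the background were replicate 1 only from 5 to 20 kb (13.3% against 9.12%) and replicate 2 only under 5 kb (22.2% against 16.2%). Below it were replicate 2 only from 20 to 50 kb (0 of 13 against 7.64%) and replicate 1 only under 5 kb (11.1% against 14.8%). At 50 kb and over, replicate 1 only gave 0 of 7 genes, which cannot be told apart from the 0.313% of all genes of that length. With so few genes in a class, 1 gene moves these shares widely. nrv3, a sodium pump subunit gene, was without a candidate in both. The conservative set can hold no site where its candidates are absent, so the counts for these genes say less than for the rest. The part of this pattern in the low counts was not tested.

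**Figure D5:**
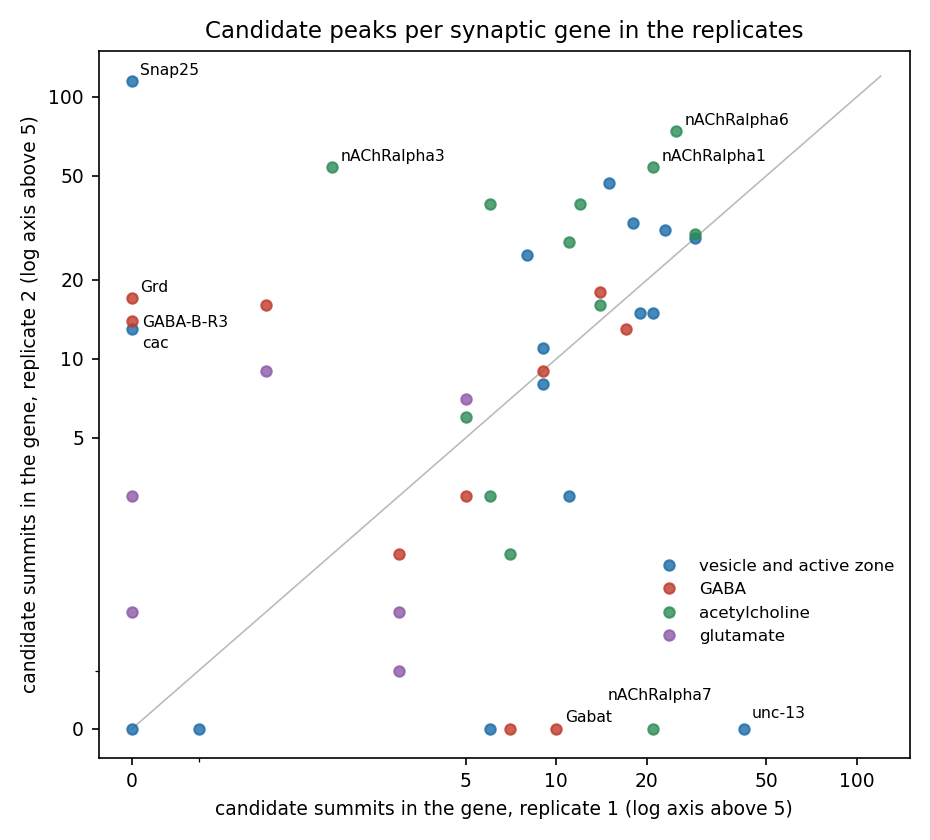
Candidate summits per gene (body and 2000 bp upstream) in replicate 1 (x axis) and replicate 2 (y axis) for the 44 genes, coloured by group, on axes that are logarithmic above 5, with the line of equal counts. Snap25 lies at 0 and 115, and unc-13 at 42 and 0.

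A wider list of other synaptic and excitability genes was a little below the share of all genes, and some of its genes had sites at their starts. Of the wider list of 62 such genes, 60 were matched, with a median length of 13285 bp. In the conservative set 10 of the 60 had a site, or 16.7%, against 20.3% of all genes and 35.2% of all genes from 5 to 20 kb, the class of the median. The 60 genes were not split by length class, so the background of that class is a rough guide only. The second series-level set gave 25.0% against 27.3% of all genes. Replicates 1 and 2 gave 16.7% against 20.7% and 15.0% against 19.7%. A site within 1000 bp of a start was found for 8, or 13.3%, against 14.9% and 24.4%. The windows of the 60 genes held 13.2 summits per Mb, against 33.3 for all genes, again not split by gene length. The strongest were at the RNA-binding protein gene elav, with a signal of 637 at 258 bp upstream, and at the syntaxin gene Syx4, with 290 at 142 bp upstream. Nrx-1, the neurexin of synaptic adhesion, had a signal of 259 and a summit 111 bp inside the gene, and the scaffold gene dlg1 had 240 with a summit 404 bp from a start. The kinesin gene unc-104 had a signal of 139 with its summit nearer to the start of Sod2. comt, which encodes the NSF protein that takes spent fusion complexes apart, had 118 with a summit 108 bp upstream. The difference between the 44 genes and the wider list was not tested.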

How the data were processed

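The authors deposited peak lists on assembly dm6, per the labels. The deposited score was a rescaled IDR and the deposited signal value ranked peaks. The deposited candidate lists also hold a −log10 IDR. The text notes beside the files list 1 further source file for thresholded lists than for candidate lists. No aligner or peak caller is named in the sources used here, and read depth is unknown. The 8 value columns that give the compared parts of the 4 candidate lists were not used.

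Genes came from Ensembl release 115 (BDGP6.54), on 6 chromosome arms and without transposable elements. All 44 listed genes had the same coordinates in RefSeq's Release 6 annotation, and every peak on those arms lay inside the Release 6 sequence. Summits were placed by position, and summits of different lists within 100 bp were taken as the same site. The motif search took both strands and 50 bp either side of a summit. The searches were tested on simulated data and found 300 of 300 planted summits. No test was made, because there was 1 group and the list was fixed.

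The genes, the wider list and the windows were chosen with earlier results of these data known. Any of the 44 could be named. Those with a site are given in full, and of the others the 2 with the strongest candidate in each group. Those whose strongest candidate had an IDR under 0.05 and those with no candidate are also given. Of the wider list the 6 with the highest signal were named. Python 3.11.15, numpy 2.4.6, pandas 2.3.3 and matplotlib 3.10.9 were used.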

Additional observations from a re-analysis of the deposited data

Results flagged for a closer look

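Syx1A had a candidate peak that none of the 4 thresholded lists holds (chr3R:24106282-24106617, signal 96.4). It was picked out because its IDR of 0.00188 is past the threshold of the conservative set. The candidates at the same place had signals of 56.5 in replicate 1 and 41.9 in replicate 2. It lies 687 bp upstream of the Syx1A start. None of the 44 genes had a site within 1000 bp of a start in those lists. Why it is absent from those lists was not tested.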

How the results depend on the processing

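The number of genes with a site depended on the peak list. It was 4 in the conservative set, 8 in the second series-level set, and 6 to 7 in the lists of the single replicates. These held 4, 9 and 6 to 7 summits in the genes. The replicate counts are those given above, and no list was made anew with a replicate left out. The share over all genes was higher than that of the 44 in each list. With the gene body alone 3 genes had a site, or 6.82%, close to the 8.61% of all genes, which are mostly shorter. By length class the body alone gave 0 of 9 against 3.41% under 5 kb, and 6.67% against 21.9% from 5 to 20 kb. From 20 to 50 kb it gave 15.4% against 45.4%, and at 50 kb and over 0 of 7 against 56.1%. With 5000 bp upstream 6 genes had a site, or 13.6% against 27.6%. The count of genes with a site near a start was 0 under every list tried, and 2 (mAChR-A and nSyb) within 2000 bp, against 20.1% of all genes. Genes that were the nearest start of a conservative site numbered 2, with 4 in the second set and 3 to 4 in the lists of the single replicates. In the conservative set, 1 was left in its upper part by signal and 1 within 2000 bp. With so few sites a single site moves these counts by a large share. Read depth is unknown, so no limit can be given for sites too weak to be listed.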
